A study of Homo sapiens with 8 samples.

Results

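The 10 genes ATF4, ATF5, DDIT3 (which encodes CHOP), DDIT4, TRIB3, CHAC1, ASNS, SESN2, CEBPB and PPP1R15A form the core of the ATF4 and CHOP stress response. They were chosen as well-known components and targets of that response, with earlier results of these data known. Each was found by its symbol in a single row of the deposited tables, which hold 55075 genes. All 10 passed the filter on low counts and were among the 17471 genes tested.

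RNA was sequenced from HCT116, a human colon cancer cell line, in 4 groups of 2 libraries, 8 in all. The groups were FBXW7 knockout (KO) cells in recovery, KO cells at heat shock, wild-type (WT) cells in recovery and WT cells at heat shock. All cells had been heated at 42 °C for 1 h, and the recovery groups had then been kept at 37 °C for 2 h. FBXW7 is the subunit of an SCF ubiquitin ligase that recognises its substrates. The sources used here do not say how the FBXW7 alleles were disrupted or whether the KO line is 1 clone. The series design text calls the libraries biological replicates, but nothing says that they came from separate cultures, so p-values measure the spread between these libraries. Unheated cells were not analysed here, so every change below is between recovery and the end of heat shock, or between the lines, and not against a resting state.

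In the integrated stress response, stress-sensing kinases phosphorylate the translation factor eIF2, general translation falls, and the ATF4 mRNA is translated more efficiently because of its upstream open reading frames. ATF4 is a bZIP transcription factor that pairs with C/EBP proteins on amino acid response elements and induces genes of amino acid supply together with DDIT3, TRIB3, CHAC1, DDIT4 and SESN2. CHOP induces PPP1R15A, which brings a phosphatase to eIF2 and ends the response. RNA levels alone do not show how much ATF4 protein a cell makes.

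The KO recovery libraries totalled 24531569 and 27187797 counts, those of KO heat shock 26102649 and 34387618, those of WT recovery 15507896 and 15654696, and those of WT heat shock 20248480 and 19979779. Replicates differed by more than sampling noise in every group: chi-square divided by its degrees of freedom ran between 2.43 (WT recovery) and 19 (WT heat shock), so the WT heat shock libraries were the least alike. FBXW7 itself was read in every library, at 13.9 ± 0.164 CPM (SD, n = 2) in KO recovery and 16.2 ± 1.74 CPM at KO heat shock, against 22.3 ± 0.892 CPM in WT recovery and 32.5 ± 1.47 CPM at WT heat shock. CPM is the usual depth-scaled read count, here with library sizes adjusted by TMM. FBXW7 was thus lower in KO at both times, but reads over the whole gene do not show whether its product was lost. All 6 of the epithelial markers looked at were read, with a sum of 1910 to 2850 CPM over the libraries, while sums of fibroblast markers were 6.56 to 10.2 CPM and of immune markers 16.1 to 29.8 CPM, with CD3E at 0 in every library, and the endothelial marker read reached at most 0.462 CPM.

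The genes lie on 8 chromosomes, with ATF5 and PPP1R15A both on chromosome 19 and TRIB3 and CEBPB both on chromosome 20. All are protein coding. Their transcripts are 1067 (DDIT3) to 3453 (SESN2) bases long and 47.0% (ASNS) to 66.2% (CEBPB) GC. In GRCh38 with GENCODE, ATF4 (ENSG00000128272) spans chr22:39519695-39522685 and DDIT3 (ENSG00000175197) spans chr12:57516588-57521737. The submitters' processing notes name hg19, so these coordinates are for orientation only.

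RefSeq promoter windows on GRCh38.p14, reaching from 250 bases before to 50 bases after each transcription start, were at hand for 10 of the 10 genes, 18 windows in all. They were searched on both strands for 3 motifs. The core of the C/EBP-ATF response element that ATF4 binds with its C/EBP partners was written as TGATGNAA, the cyclic AMP response element as TGACGTCA, and a pair of heat shock element units as GAANNTTC. The first was found in 2 of the 18 windows, of CHAC1 and ASNS, against 3.62% of 35116 windows of all genes. The cyclic AMP response element was in the PPP1R15A window, against 1.85% of all windows, and the heat shock pair in the ASNS window, against 6.77%, where it overlaps the C/EBP-ATF core. A match is a run of letters and not a shown binding site. The 3 stretches below are given because CHAC1 and ASNS carry the same core and moved in opposite directions in WT recovery, and because PPP1R15A, whose level varied least, carries the other motif. Capitals mark the C/EBP-ATF core in CHAC1 and ASNS and the cyclic AMP response element in PPP1R15A, each read on the strand of the gene.
CHAC1: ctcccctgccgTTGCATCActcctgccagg
ASNS: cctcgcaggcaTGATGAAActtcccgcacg
PPP1R15A: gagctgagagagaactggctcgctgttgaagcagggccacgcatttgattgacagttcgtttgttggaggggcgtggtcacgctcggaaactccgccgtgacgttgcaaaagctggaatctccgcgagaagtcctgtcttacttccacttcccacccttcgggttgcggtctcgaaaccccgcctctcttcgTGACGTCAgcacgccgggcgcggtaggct
The CHAC1 stretch is chr15:40953251-40953280 on the plus strand, with the core on the opposite strand at position -209 from the RefSeq start, in an exon of longer GENCODE transcripts. That of ASNS is chr7:97872458-97872487 on the minus strand, with the core at position -68, also in an exon of longer transcripts. The PPP1R15A stretch, chr19:48872171-48872391 on the plus strand, ends just before the first GENCODE exon.

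Per kilobase of transcript, ATF4 had the highest level of the 10 genes in 3 of the 4 groups, at 154.3 ± 11.3 CPM per kb in KO recovery, 121.6 ± 8.22 CPM per kb at KO heat shock and 230.4 ± 16.6 CPM per kb at WT heat shock (SD, n = 2 each). In WT recovery ASNS, which makes asparagine, was at the top with 217.2 ± 3.59 CPM per kb, then DDIT4 with 157.6 ± 0.826 and ATF4 with 138.3 ± 4.22 CPM per kb, and the libraries of these neighbours did not overlap. The lowest levels were those of SESN2 in both KO groups, at 7.44 ± 0.319 CPM per kb in recovery and 5.998 ± 0.0949 at heat shock, of CHAC1 in WT recovery at 8.95 ± 0.0536, and of CEBPB at WT heat shock at 8.79 ± 1.07. Neighbours in the order whose libraries overlapped were DDIT3 and ASNS, DDIT4 and TRIB3, and PPP1R15A and ATF5 in KO recovery, and TRIB3 and DDIT4, and PPP1R15A and ATF5 at WT heat shock. Summed over the 10 genes, the libraries held 848.4 and 804.4 CPM in KO recovery against 555.3 and 525.2 CPM at KO heat shock, and 1469 and 1480 CPM in WT recovery against 1166 and 1318 CPM at WT heat shock. The sum was highest in WT recovery, and no 2 groups overlapped.

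**Figure D1:**
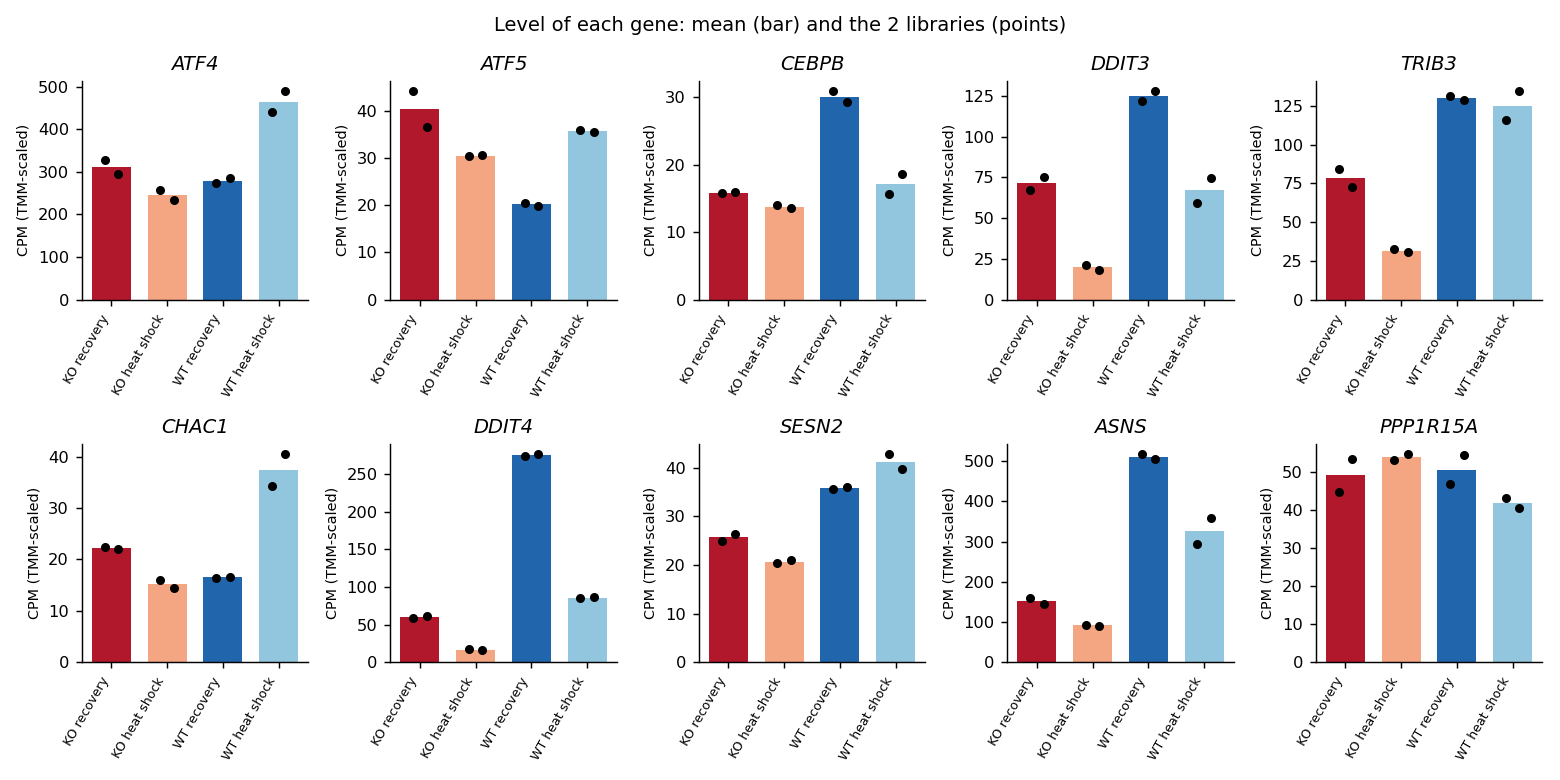
Level of each of the 10 genes in CPM (TMM-scaled) on a linear axis from 0, with the mean of each group as a bar and its 2 libraries as points, for KO recovery, KO heat shock, WT recovery and WT heat shock. DDIT4 and ASNS stand highest in WT recovery, at 274 and 276 CPM and at 518 and 506 CPM, while ATF4 and CHAC1 stand highest at WT heat shock.

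The first comparison was that of recovery with heat shock in each line, which the series design text describes as matched pairs of the same replicate number. In KO cells the set moved up: 8 of the 10 genes rose, led by DDIT3, DDIT4 and TRIB3, and none fell. With GC and length offsets, 4 of the 10 rose and 1 fell in KO, beside 3438 and 2368 of all genes. In the main fit 3601 of all genes rose and 3694 fell. Fewer rises were called without the first KO recovery or the first KO heat shock library, among the 10 genes and over all genes. In WT cells the set split: DDIT4, DDIT3, CEBPB, ASNS and PPP1R15A rose while CHAC1, ATF5 and ATF4 fell. Of all genes tested, 20.6% rose and 21.1% fell in KO recovery, and 24.8% rose and 26.0% fell in WT recovery. The 3 of 10 genes that fell in WT thus lie near the background, while the 5 of 10 that rose lie above it. The median log2 change of the 10 genes was 0.47 in KO, against -0.023 over all genes, and 0.16 in WT, against 0.009. A gene was called at a Benjamini-Hochberg adjusted p under 0.05 in edgeR's quasi-likelihood test. At a change of at least 2-fold, 3 of the 10 genes rose and 0 fell in KO, where 4.26% of all genes rose and 2.41% fell by as much. In WT, 1 rose (DDIT4) and 1 fell (CHAC1), where 8.46% of all genes rose and 3.77% fell by as much. The rise of 1 gene in 10 lies near its background. Libraries were made from bulk RNA, so a level that changed in every cell and one that changed in some cells cannot be told apart.

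Of the transcription factors, ATF4 and ATF5 moved in opposite directions in the lines. ATF4 had 328 and 296 CPM in KO recovery, against 257 and 234 CPM at KO heat shock. The WT libraries held 273 and 285 CPM of it in recovery, against 441 and 489 CPM at heat shock. Recovery was therefore the higher group in KO and the lower one in WT, with no overlap in either. On the log2 scale the change was 0.34 ± 0.10 in KO (SE; adjusted p = 0.00711) and -0.73 ± 0.10 in WT (adjusted p = 5.0e-06), a 1.66-fold lower level in WT recovery. The change in KO was lost with offsets for GC content and transcript length (0.13, adjusted p = 0.289), with scaling by column totals (0.22, adjusted p = 0.0649), and on leaving out any one of the KO libraries (0.34 to 0.36, adjusted p 0.123 to 0.177). That in WT passed under all 15 alternatives, from -0.81 to -0.48.

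ATF5, a bZIP factor whose mRNA is controlled by upstream reading frames as that of ATF4 is, had 44.2 and 36.5 CPM in KO recovery, against 30.4 and 30.7 CPM at KO heat shock. Its WT levels were 20.5 and 19.9 CPM in recovery, against 36.0 and 35.6 CPM at heat shock. The groups did not overlap in either line, and the first KO recovery library was the highest of all. Recovery over heat shock gave a log2 change of 0.39 ± 0.10 in KO (adjusted p = 0.00427) and -0.83 ± 0.11 in WT (adjusted p = 6.7e-06). In KO it was not called without the first recovery library (0.27, adjusted p = 0.275), without the first heat shock library (0.25, adjusted p = 0.315) or with GC and length offsets (0.12, adjusted p = 0.342). In GENCODE the exons of ATF5 share 626 bases with NUP62, a nuclear pore gene, and 75 bases with IL4I1, both on the opposite strand, and the sources used here do not say whether reads were counted by strand. NUP62 changed the same way, by 0.35 ± 0.10 in KO (adjusted p = 0.00648) and by -1.23 ± 0.10 in WT (adjusted p = 2.0e-08), as did IL4I1, by 1.04 ± 0.14 and -1.52 ± 0.16. The part of these genes in the ATF5 counts was not tested.

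DDIT3, the gene of the pro-apoptotic factor CHOP, had 67.4 and 75.2 CPM in KO recovery, against 21.3 and 18.2 CPM at KO heat shock. In the WT line it stood at 122 and 128 CPM in recovery, against 59.1 and 74.8 CPM at heat shock. Both recovery libraries exceeded both heat shock libraries in each line, and the KO recovery libraries overlapped those of WT heat shock. The log2 change was 1.86 ± 0.11 in KO (adjusted p = 3.2e-10), a 3.62-fold rise, and 0.91 ± 0.10 in WT (adjusted p = 1.2e-06), a 1.88-fold rise. Both passed under all 15 alternatives, with ranges over left-out libraries of 1.66 to 2.07 and 0.74 to 1.06. DDIT3 exons share 355 bases with MARS, the methionyl-tRNA synthetase gene on the opposite strand, and 58 bases with MBD6, also on that strand. They share 105 bases with a gene on the same strand that is not among the genes used here, so reads over those bases cannot be told apart. MARS rose by 0.69 ± 0.10 in KO (adjusted p = 1.6e-05) and changed by 0.03 ± 0.10 in WT (adjusted p = 0.797), and its part in the DDIT3 counts was not tested.

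CEBPB encodes C/EBP beta, a bZIP partner of ATF4 and CHOP. It had 15.8 and 15.9 CPM in KO recovery, against 14.0 and 13.5 CPM at KO heat shock. In WT cells it had 30.9 and 29.3 CPM in recovery, against 15.7 and 18.7 CPM at heat shock. WT recovery stood apart from the other 3 groups, which lay between 13.5 and 18.7 CPM. On the log2 scale the change was 0.21 ± 0.12 in KO (adjusted p = 0.168), and 0.81 ± 0.12 in WT (adjusted p = 1.3e-05). The antisense gene CEBPB-AS1, not among the genes used here, shares 231 exon bases with it, and the same limit holds.

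Of the genes that feed back on the response, TRIB3, a pseudokinase that binds ATF4 and CHOP and restrains them, had 84.2 and 72.8 CPM in KO recovery, against 32.5 and 30.6 CPM at KO heat shock. The WT libraries held 132 and 129 CPM of it in recovery, against 116 and 134 CPM at heat shock. The WT groups overlapped, and all 4 WT libraries exceeded all 4 KO libraries. Recovery over heat shock gave a log2 change of 1.31 ± 0.10 in KO (adjusted p = 7.6e-09), a 2.48-fold rise, and 0.06 ± 0.09 in WT (adjusted p = 0.624), where the 95% interval was -0.14 to 0.26. With GC and length offsets the WT value was 0.43 (adjusted p = 7.7e-05).

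PPP1R15A, the GADD34 subunit that brings protein phosphatase to eIF2, had the narrowest range of the set relative to its level. It had 44.8 and 53.6 CPM in KO recovery, against 53.3 and 54.8 CPM at KO heat shock. Its WT levels were 46.9 and 54.5 CPM in recovery, against 43.3 and 40.7 CPM at heat shock. The KO groups overlapped and the WT groups did not. The log2 change was -0.14 ± 0.10 in KO (adjusted p = 0.282) and 0.27 ± 0.10 in WT (adjusted p = 0.0372). The WT call was lost without the second recovery or the second heat shock library (0.12 each, adjusted p = 0.45 and 0.471), without any one KO library (adjusted p 0.0582 to 0.0619), in DESeq2 (adjusted p = 0.108) and with no filter on low counts (adjusted p = 0.124). With GC and length offsets the KO change was -0.37 (adjusted p = 0.00115) and the WT change 0.61.

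Of the metabolic targets, CHAC1, an enzyme that degrades glutathione, moved the same way as ATF4 in each line. It had 22.5 and 22.0 CPM in KO recovery, against 16.0 and 14.5 CPM at KO heat shock. In the WT line it stood at 16.5 and 16.6 CPM in recovery, against 34.2 and 40.5 CPM at heat shock. The groups did not overlap in either line, and WT heat shock was the highest group. On the log2 scale the change was 0.55 ± 0.11 in KO (adjusted p = 5.0e-04) and -1.17 ± 0.11 in WT (adjusted p = 1.5e-07), a 2.25-fold lower level in WT recovery. With GC and length offsets the rise in KO was not called (0.24, adjusted p = 0.0711), and the fall in WT passed under all 15 alternatives.

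ASNS, asparagine synthetase, had 159 and 145 CPM in KO recovery, against 93.0 and 91.4 CPM at KO heat shock. In WT cells it had 518 and 506 CPM in recovery, against 293 and 358 CPM at heat shock. It rose in both lines with no overlap of groups, and every WT library exceeded every KO library. Recovery over heat shock gave a log2 change of 0.72 ± 0.10 in KO (adjusted p = 2.3e-05) and 0.66 ± 0.10 in WT (adjusted p = 3.3e-05), and both passed under all 15 alternatives. GENCODE places a transcript on the same strand that shares 1985 bases with ASNS and that is not among the genes used here, so reads of the pair cannot be told apart.

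DDIT4 and SESN2 restrain the growth kinase complex mTORC1. DDIT4, also called REDD1, acts through the TSC complex. It had 58.3 and 61.5 CPM in KO recovery, against 17.0 and 16.6 CPM at KO heat shock. The WT libraries held 274 and 276 CPM of it in recovery, against 84.9 and 86.4 CPM at heat shock. Replicates were close, and no group overlapped another. The log2 change was 1.84 ± 0.10 in KO (adjusted p = 9.2e-11), a 3.57-fold rise, and 1.69 ± 0.09 in WT (adjusted p = 1.4e-10), a 3.22-fold rise. In GENCODE its exons share 847 bases with DDIT4-AS1 on the opposite strand, an antisense gene that is not among the genes used here, so reads of the pair cannot be told apart without a strand setting.

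SESN2, a leucine sensor that acts through the GATOR complexes, had 24.9 and 26.5 CPM in KO recovery, against 20.5 and 20.9 CPM at KO heat shock. Its WT levels were 35.6 and 36.0 CPM in recovery, against 42.8 and 39.8 CPM at heat shock. No groups overlapped, and the differences were small. On the log2 scale the change was 0.31 ± 0.10 in KO (adjusted p = 0.0189) and -0.20 ± 0.10 in WT (adjusted p = 0.0974). The KO call was lost without any one KO library (0.28 to 0.36, adjusted p 0.139 to 0.244), in DESeq2 (adjusted p = 0.126), with column totals (0.19, adjusted p = 0.16) and with GC and length offsets (0.13, adjusted p = 0.306).

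**Figure D2:**
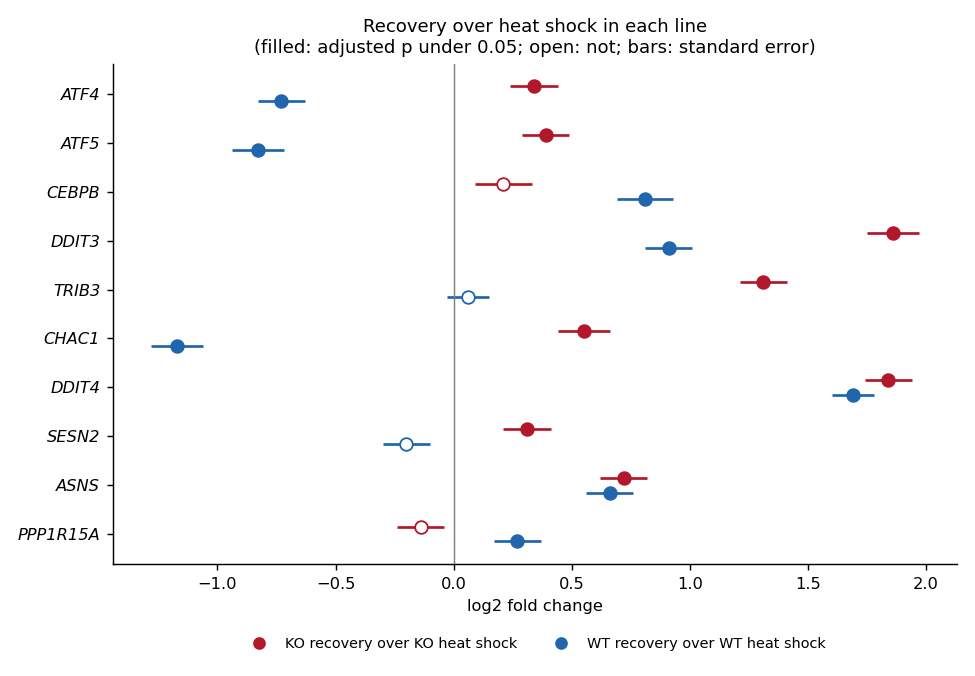
Log2 fold change of recovery over heat shock for the 10 genes, KO in red above WT in blue, with standard errors as bars and filled points where the adjusted p was under 0.05. DDIT4 and ASNS lie together in the lines, while ATF4, ATF5 and CHAC1 lie right of 0 in KO and left of 0 in WT.

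The authors' deposited tables give a log2 fold change for each pair, scaled by column totals. For ATF4 it was 0.18 and 0.25 in the KO pairs, against -0.55 and -0.63 in the WT pairs. For CHAC1 it was 0.33 and 0.52 in the KO pairs, against -0.92 and -1.14 in the WT pairs in the authors' deposited tables. In each of the 4 tables these signs are the same as those of the test on all libraries. Both were computed from the same counts, so the shared signs are no separate check.

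Whether the recovery responses differed between the lines was tested as the interaction. The response was more upward in KO for CHAC1, TRIB3, ATF5, ATF4, DDIT3 and SESN2, and less so for CEBPB and PPP1R15A. For DDIT4 and ASNS no difference was called. That is 6 of the 10 genes with a higher and 2 with a lower response in KO, beside 28.5% and 27.8% of all genes tested. By at least 2-fold, 4 genes had a higher response (12.6% of all genes) and 0 a lower one (13.7% of all genes). The median difference over the 10 genes was 0.73, against -0.032 over all genes.

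CHAC1 had the largest difference of the responses, 1.72 ± 0.16 on the log2 scale (adjusted p = 5.3e-08), where each KO pair rose (0.49 and 0.61) and each WT pair fell (-1.05 and -1.28). TRIB3 differed by 1.25 ± 0.14 (adjusted p = 4.0e-07), with pairs at 1.37 and 1.25 in KO and at 0.18 and -0.06 in WT. ATF5 differed by 1.22 ± 0.15 (adjusted p = 1.8e-06), with pairs at 0.54 and 0.25 in KO and at -0.81 and -0.84 in WT. These and the next gene, ATF4, differed in sign or were near 0 in WT, so the gap between the lines exceeded the gap between the pairs of a line. ATF4 differed by 1.08 ± 0.13 (adjusted p = 2.2e-06), with pairs at 0.35 and 0.34 in KO and at -0.69 and -0.78 in WT. DDIT3 rose in all 4 pairs, by 1.66 and 2.05 in KO and by 1.05 and 0.77 in WT, a difference of 0.95 ± 0.15 (adjusted p = 3.1e-05). All 5 of these differences passed under all 15 alternatives. With GC and length offsets those of CHAC1, TRIB3, ATF5 and ATF4 were smaller (1.12, 0.64, 0.62 and 0.60) and that of DDIT3 was 0.98. Of the genes that overlap ATF5, NUP62 differed by 1.58 ± 0.14 (adjusted p = 3.6e-08) and IL4I1 by 2.56 ± 0.21 (adjusted p = 2.2e-08). Of those that overlap DDIT3, MARS differed by 0.66 ± 0.14 (adjusted p = 4.3e-04) and MBD6 by -0.28 ± 0.18 (adjusted p = 0.2). No alternative separates their reads, and their part in the differences of ATF5 and DDIT3 was not tested.

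In the main fit the other differences were smaller, and their size or call depended on single libraries or settings. SESN2 differed by 0.51 ± 0.14 (adjusted p = 0.00469), which was not called without the second KO recovery library (0.49, adjusted p = 0.0516), without the second KO heat shock library (0.49, adjusted p = 0.0564) or with column totals (0.25, adjusted p = 0.156), and was -0.05 with GC and length offsets. CEBPB differed by -0.60 ± 0.16 (adjusted p = 0.00399), but by -0.41 (adjusted p = 0.0637) without the first WT recovery library and by -0.40 (adjusted p = 0.066) without the first WT heat shock library. PPP1R15A differed by -0.41 ± 0.14 (adjusted p = 0.0212). It was not called without the first KO recovery (-0.27), first KO heat shock (-0.30), second WT recovery (-0.25) or second WT heat shock library (-0.24), nor in DESeq2 (adjusted p = 0.0701) or with no filter (-0.34, adjusted p = 0.077). For these 3 genes at least 1 setting therefore ended the call. With GC and length offsets, however, the differences of CEBPB and PPP1R15A were larger, at -1.16 (adjusted p = 9.2e-08) and -0.98 (adjusted p = 6.2e-08). DDIT4 differed by 0.15 ± 0.13 (adjusted p = 0.348) with a 95% interval of -0.13 to 0.43, and by -0.37 (adjusted p = 0.0141) with GC and length offsets. ASNS differed by 0.06 ± 0.14 (adjusted p = 0.751) with a 95% interval of -0.24 to 0.36, so a difference between the lines as large as that of ATF4 lies outside both intervals.

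The second comparison was that of the lines at the same time. After recovery DDIT4 and ASNS were the genes with the largest deficit in KO, CEBPB, DDIT3, TRIB3 and SESN2 were lower too, and ATF5 and CHAC1 were higher. At heat shock 8 of the 10 genes were lower in KO, 5 of them by at least 2-fold, and only PPP1R15A was higher. At recovery 2 of the 10 genes were thus higher and 6 lower, beside 31.8% and 31.3% of all genes tested. At heat shock 1 was higher and 8 lower, beside 27.4% and 28.2% of all genes. By at least 2-fold, 0 genes were higher and 2 lower at recovery (8.51% and 14.9% of all genes), and 0 were higher and 5 lower at heat shock (5.87% and 8.93% of all genes). The median log2 difference of the 10 genes was -0.6 at recovery, against -0.01 over all genes, and -1.14 at heat shock, against -0.03. The comparisons at both times share their libraries with the comparisons of recovery and heat shock, so they are the same data read along the other axis.

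DDIT4 averaged 59.9 ± 2.29 CPM in KO and 275.4 ± 1.44 CPM in WT at recovery (SD, n = 2 each), a log2 difference of -2.20 ± 0.08 (SE; adjusted p = 8.8e-11). At heat shock it averaged 16.8 ± 0.258 CPM in KO and 85.7 ± 1.11 CPM in WT, a difference of -2.35 ± 0.08 (adjusted p = 8.5e-11). The level in KO was thus 4.6-fold lower at recovery and 5.11-fold lower at heat shock. ASNS averaged 152 ± 9.79 CPM in KO and 511.6 ± 8.46 CPM in WT at recovery, a 3.37-fold lower level (-1.75 ± 0.10, adjusted p = 3.5e-09). At heat shock it averaged 92.2 ± 1.16 CPM in KO and 326 ± 46.3 CPM in WT, a 3.53-fold lower level (-1.82 ± 0.10, adjusted p = 5.7e-09). Neither gene changed its call under any of the 15 alternatives.

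In the main fit the deficit of TRIB3, DDIT3 and SESN2 in KO was smaller at recovery than at heat shock. TRIB3 differed by -0.73 ± 0.10 at recovery (adjusted p = 1.2e-05) and by -1.99 ± 0.10 at heat shock (adjusted p = 2.7e-09). DDIT3 differed by -0.81 ± 0.11 at recovery (adjusted p = 1.8e-05) and by -1.76 ± 0.12 at heat shock (adjusted p = 4.2e-08), a 3.39-fold lower level. MARS, which overlaps DDIT3, differed by -0.05 ± 0.08 at recovery (adjusted p = 0.615) and by -0.71 ± 0.08 at heat shock (adjusted p = 5.4e-06). SESN2 differed by -0.48 ± 0.09 at recovery (adjusted p = 3.7e-04) and by -0.99 ± 0.09 at heat shock (adjusted p = 6.6e-07). With GC and length offsets the SESN2 deficit was not smaller at recovery (-0.79) than at heat shock (-0.74). Those of TRIB3 (-1.04 and -1.69) and DDIT3 (-0.65 and -1.64) still were. The test of the change between the times is the interaction given above.

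ATF4 and CHAC1 were lower in KO at heat shock and not at recovery. ATF4 differed by 0.16 ± 0.09 at recovery (adjusted p = 0.14; 95% interval -0.03 to 0.35) and by -0.92 ± 0.09 at heat shock (adjusted p = 1.3e-06). The KO and WT recovery libraries of ATF4 did not overlap, and the difference was called only with no filter on low counts (0.25, adjusted p = 0.0156). Its sign turned with upper-quartile scaling (-0.01), column totals (-0.03) and GC and length offsets (-0.08). CHAC1 differed by 0.43 ± 0.11 at recovery (adjusted p = 0.0041) and by -1.29 ± 0.11 at heat shock (adjusted p = 2.5e-07). The CHAC1 call at recovery was lost with upper-quartile scaling (0.26, adjusted p = 0.0577), column totals (0.24, adjusted p = 0.0847) and GC and length offsets (0.17, adjusted p = 0.237).

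ATF5 had the largest excess in KO after recovery, 1.00 ± 0.11 (adjusted p = 1.6e-06; 40.4 ± 5.40 CPM in KO and 20.2 ± 0.473 CPM in WT), while at heat shock it differed by -0.23 ± 0.10 (adjusted p = 0.0641). That heat shock difference was called with upper-quartile scaling (-0.29, adjusted p = 0.0206) and without the first (-0.25, adjusted p = 0.0292) or the second KO recovery library (-0.23, adjusted p = 0.0497), and was 0.07 with GC and length offsets. NUP62, which overlaps ATF5, was also higher in KO at recovery (1.17 ± 0.10, adjusted p = 1.2e-07). CEBPB was lower in KO, with -0.93 ± 0.11 at recovery (adjusted p = 3.7e-06) and -0.32 ± 0.11 at heat shock (adjusted p = 0.0209). The CEBPB call at heat shock was lost without the first (-0.35, adjusted p = 0.0644) or second KO heat shock library (-0.30, adjusted p = 0.109), without the second WT heat shock library (-0.21, adjusted p = 0.139), in DESeq2 (adjusted p = 0.0657), with column totals (adjusted p = 0.0807) and with GC and length offsets (adjusted p = 0.987). Without the first WT heat shock library it was -0.49 (adjusted p = 0.00175). PPP1R15A differed by -0.04 ± 0.10 at recovery (adjusted p = 0.746) and by 0.37 ± 0.10 at heat shock (adjusted p = 0.00717). The recovery difference was called, as -0.34 (adjusted p = 0.00606), with GC and length offsets. With them 7 of the 10 genes were lower in KO, beside 5804 of the 17471 genes tested. The heat shock call was lost without the second KO heat shock library (0.34, adjusted p = 0.0514).

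**Figure D3:**
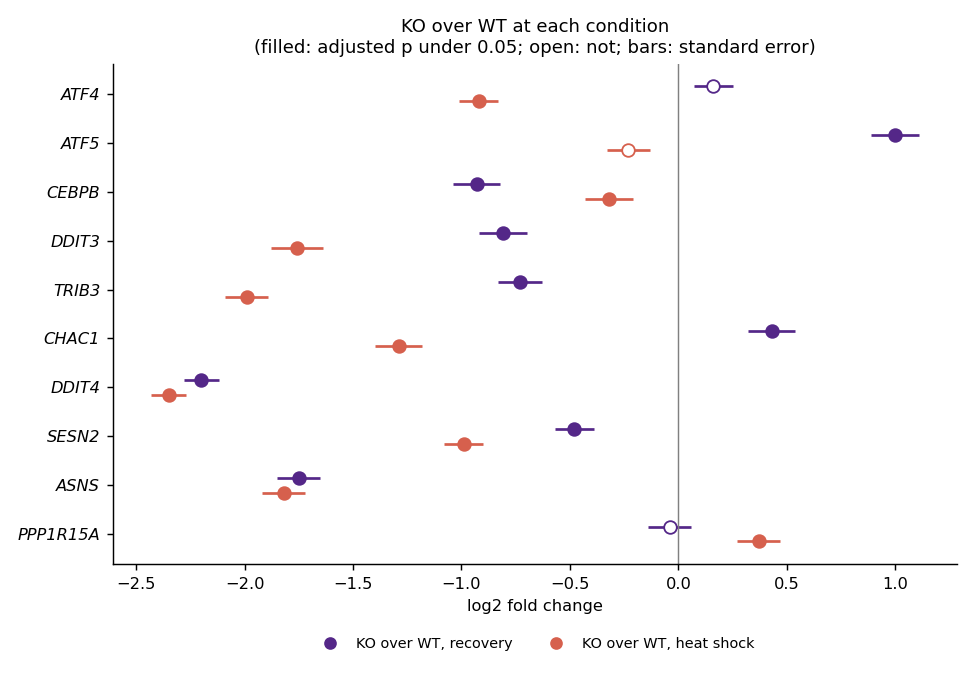
Log2 difference of KO over WT for the 10 genes, recovery in purple above heat shock in orange, with standard errors as bars and filled points where the adjusted p was under 0.05. DDIT4 and ASNS lie between -2.35 and -1.75 at both times, while CHAC1 lies at 0.43 at recovery and -1.29 at heat shock.

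Transcript length moved with the recovery changes over all coding genes, in opposite directions in the lines, and a fit with offsets for the GC content and length of each gene was run beside each test. For 556 coding genes with transcripts of up to 1000 bases the median log2 change was 0.53 in KO recovery and -0.24 in WT recovery, and for 6323 genes with transcripts of over 3500 bases it was -0.16 in KO and 0.05 in WT. Medians in the length classes of the 10 genes were 0.30 in KO and -0.12 in WT for that of DDIT3, 0.18 and -0.14 for that of DDIT4, CHAC1 and CEBPB, 0.07 and -0.11 for that of ATF4, ATF5, TRIB3, ASNS and PPP1R15A, and -0.01 and -0.09 for that of SESN2. With GC and length offsets 4 of the 8 rises in KO still passed, those of DDIT3 (1.68), DDIT4 (1.56), TRIB3 (1.07) and ASNS (0.78). The sources used here do not say which of the libraries were made from poly-A selected and which from rRNA-depleted RNA, and the part of this in the length pattern was not tested.

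**Figure D4:**
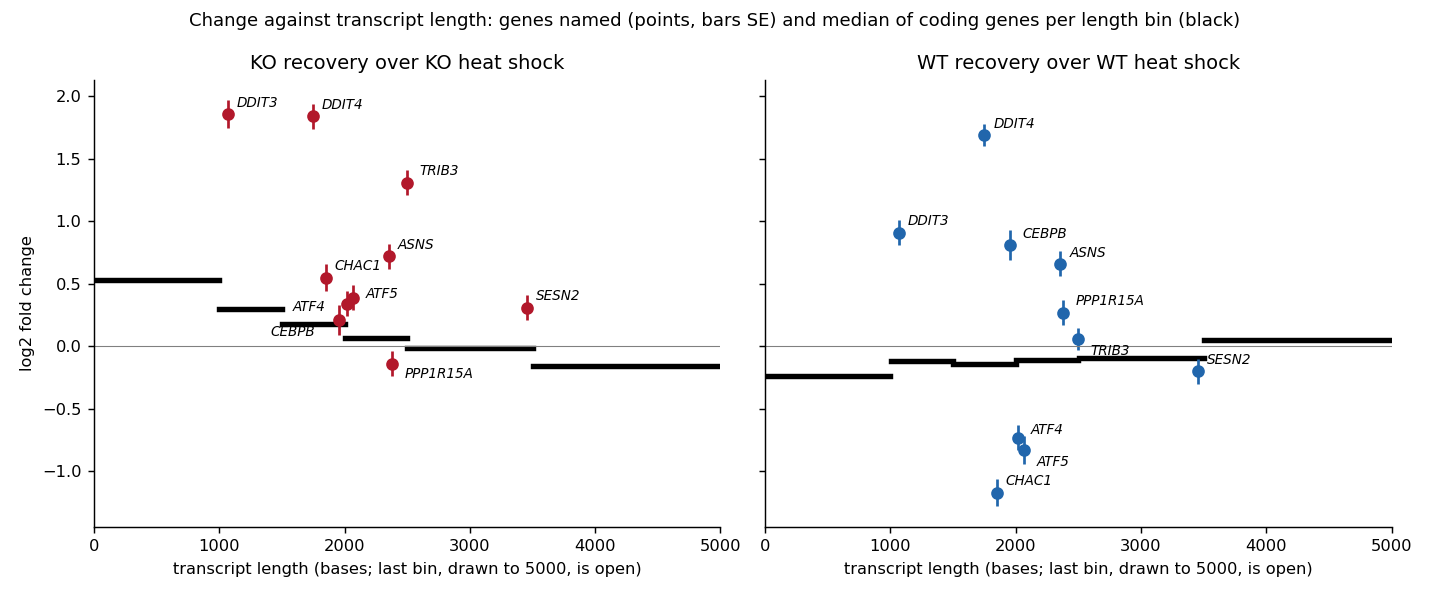
Log2 fold change of recovery over heat shock against transcript length in bases, KO on the left and WT on the right, with the 10 genes as points with standard errors and the median of coding genes per length class as black bars. Medians fall with length in KO, reaching 0.53 in the shortest class, and are lowest in the shortest class in WT, at -0.24.

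Genes around the core were taken as 5 lists by function, drawn up with earlier results of these data known. Of 39 other ATF4 or CHOP target genes tested, which supply amino acids, charge tRNAs or act in stress, 20 rose and 4 fell in KO recovery (median 0.31), and 14 rose and 8 fell in WT recovery (median 0.15). That is 51.3% and 10.3% of the list in KO, where 20.6% of all genes rose and 21.1% fell, and 35.9% and 20.5% in WT, where 24.8% rose and 26.0% fell. Between the lines, 5 were higher and 24 lower in KO at recovery (median -0.52), and 3 were higher and 28 lower at heat shock (median -0.59). The lower ones made up 61.5% of the list at recovery and 71.8% at heat shock, beside 31.3% and 28.2% of all genes. The responses differed upward in 15 and downward in 6 (median 0.02), beside 28.5% and 27.8% of all genes. CBS, FGF21 and VLDLR of this list were not tested because of low counts. Like ASNS, GDF15, a secreted stress cytokine, rose in both lines, by 1.24 ± 0.10 in KO (adjusted p = 1.3e-08) and 1.23 ± 0.10 in WT (adjusted p = 1.4e-08), and was lower in KO after recovery (-0.94 ± 0.09, adjusted p = 6.3e-07; 166 ± 9.81 CPM in KO and 320 ± 24.5 CPM in WT). HERPUD1, a component of ER-associated degradation, had a difference of responses of 3.46 ± 0.14 (adjusted p = 2.1e-12). It averaged 206 ± 5.69 CPM in KO recovery against 116 ± 13.9 CPM at KO heat shock, and 27.4 ± 0.256 CPM in WT recovery against 169 ± 13.8 CPM at WT heat shock. KLHL24 rose by 2.42 ± 0.13 in WT (adjusted p = 1.3e-10) and was lower in KO after recovery (-3.30 ± 0.14, adjusted p = 3.3e-10). The 5 targets higher in KO at recovery were HERPUD1 (2.91), SHMT2 of serine and glycine metabolism (0.85 ± 0.09, adjusted p = 1.1e-06), CDKN1A (0.64), the glutamine transporter SLC1A5 (0.34 ± 0.10, adjusted p = 0.00687) and ALDH18A1 of proline synthesis (0.25 ± 0.08, adjusted p = 0.0165).

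Among enzymes of amino acid synthesis at heat shock, PYCR1 of the proline pathway was lower in KO (-1.30 ± 0.10, adjusted p = 1.0e-07; 126 ± 3.73 CPM in KO and 311 ± 3.01 CPM in WT), as were PHGDH of the serine pathway (-1.04 ± 0.08, adjusted p = 2.3e-07; 59.3 ± 2.28 CPM in KO and 122 ± 9.02 CPM in WT), and GPT2, an alanine aminotransferase (-1.09 ± 0.10, adjusted p = 5.6e-07). SARS, the seryl-tRNA synthetase gene, was also lower (-1.14 ± 0.09, adjusted p = 1.5e-07; 119 ± 1.22 CPM in KO and 261 ± 21.2 CPM in WT). The genes of this list higher in KO at heat shock were ERO1L, an ER oxidase (1.33 ± 0.13, adjusted p = 1.1e-06), CDKN1A, a cell cycle inhibitor also induced by p53 (0.80 ± 0.08, adjusted p = 1.8e-06), and XPOT, a tRNA exporter (0.34 ± 0.10, adjusted p = 0.0111).

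Upstream of ATF4, 16 genes of eIF2, its kinases and regulators and of its exchange factor eIF2B were tested. In KO recovery 6 rose and 5 fell (median 0.05), which is 37.5% and 31.2% of them, beside 20.6% and 21.1% of all genes. In WT recovery 2 rose and 8 fell (median -0.21), 12.5% and 50.0% of them, beside 24.8% and 26.0% of all genes. Their responses differed upward in 9 and downward in 4 (median 0.42), 56.2% and 25.0% of them, beside 28.5% and 27.8% of all genes. Between the lines 11 were higher and 3 lower in KO at recovery (median 0.31), and 7 higher and 3 lower at heat shock (median 0.21). The higher ones were 68.8% of the list at recovery and 43.8% at heat shock, beside 31.8% and 27.4% of all genes. The lower ones were 18.8% of the list at each time, beside 31.3% at recovery and 28.2% at heat shock. EIF2AK3, the ER stress kinase PERK, was higher in KO at recovery by 1.17 ± 0.11 (adjusted p = 4.1e-07; 43.8 ± 1.84 CPM in KO and 19.5 ± 2.20 CPM in WT). DNAJC3, an inhibitor of eIF2 kinases in the ER, was higher by 1.38 ± 0.09 (adjusted p = 1.2e-08). EIF2AK2, the RNA-sensing kinase PKR, fell in KO (-0.81 ± 0.10, adjusted p = 2.6e-06) and rose by 0.51 ± 0.10 in WT (adjusted p = 2.5e-04). The eIF2 subunit gene EIF2S3 also rose in WT (0.57 ± 0.10, adjusted p = 1.1e-04), while EIF2B2 and EIF2B5 of eIF2B fell there (-0.60 ± 0.11 and -0.55 ± 0.10, adjusted p = 1.5e-04 each).

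Of 21 other bZIP factors, 7 rose and 2 fell in KO recovery (median 0.06), and 5 rose and 5 fell in WT recovery (median -0.09). The WT counts are 23.8% of the list each way and lie at the background of 24.8% and 26.0% of all genes, while the KO counts are 33.3% and 9.52%, beside 20.6% and 21.1%. Responses differed upward in 7 and downward in 1 (median 0.16), 33.3% and 4.76% of the list, beside 28.5% and 27.8% of all genes. Between the lines 9 were higher and 4 lower in KO at recovery (median 0.16), and 4 higher and 5 lower at heat shock (median -0.01), beside 31.8% and 31.3% of all genes at recovery and 27.4% and 28.2% at heat shock. XBP1, the factor spliced by IRE1 in ER stress, fell in WT (-1.33 ± 0.10, adjusted p = 5.9e-09) and was higher in KO at recovery by 1.54 ± 0.09 (adjusted p = 8.0e-09; 110 ± 9.21 CPM in KO and 37.7 ± 2.24 CPM in WT). ATF6 differed in responses by -1.09 ± 0.13 (adjusted p = 1.1e-06), the one gene of the list whose response was called lower in KO. FOS rose in KO by 1.40 ± 0.12 (adjusted p = 6.0e-08) and fell in WT (-0.52 ± 0.13, adjusted p = 0.00319).

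Of 23 genes of mTORC1 and its regulators, the pathway that DDIT4 and SESN2 restrain, 10 rose and 5 fell in KO recovery (median 0.16), and 6 rose and 11 fell in WT recovery (median -0.23). The 5 that fell in KO (21.7% of the list) and the 6 that rose in WT (26.1%) lie at the background of 21.1% and 24.8% of all genes, while the 10 that rose in KO were 43.5% and the 11 that fell in WT 47.8%, beside 20.6% and 26.0%. Responses differed upward in 11 and downward in 6 (median 0.31), 47.8% and 26.1% of the list, beside 28.5% and 27.8% of all genes. The downward share thus lay near the background. Between the lines 12 were higher and 5 lower in KO at recovery (median 0.29), and 8 higher and 12 lower at heat shock (median -0.37), beside 31.8% and 31.3% of all genes at recovery and 27.4% and 28.2% at heat shock. DEPTOR, an inhibitory subunit of mTOR complexes, was at 0.881 ± 0.0465 CPM in KO and 11.2 ± 0.615 CPM in WT at recovery (-3.66 ± 0.21, adjusted p = 3.3e-09). MTOR itself was higher in KO at recovery by 1.31 ± 0.11 (adjusted p = 1.8e-07; 249.9 ± 7.22 CPM in KO and 100.4 ± 2.82 CPM in WT).

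Of 12 relatives of the core genes, taken by family or, for CEBPZ, by name, 1 rose and 7 fell in KO recovery (median -0.38). In WT recovery 6 rose and 1 fell (median 0.23). Their responses differed upward in 1 and downward in 5 (median -0.41), 8.33% and 41.7% of the list, beside 28.5% and 27.8% of all genes. The 7 that fell in KO were 58.3% of the list, beside 21.1% of all genes, and the 6 that rose in WT 50.0%, beside 24.8%. Between the lines 4 were higher and 4 lower in KO at recovery (median 0.14) and 7 higher and 2 lower at heat shock (median 0.42). At recovery these are 33.3% of the list each way, near the 31.8% and 31.3% of all genes, and at heat shock 58.3% and 16.7%, beside 27.4% and 28.2%. DDIT4L, the paralog of DDIT4, rose in WT as DDIT4 did (2.14 ± 0.20, adjusted p = 1.5e-07) but fell in KO (-1.10 ± 0.22, adjusted p = 6.3e-04). It averaged 1.79 ± 0.316 CPM in KO recovery against 3.80 ± 0.0279 CPM at KO heat shock, and 11.4 ± 0.237 CPM in WT recovery against 2.59 ± 0.837 CPM at WT heat shock. SESN3 likewise rose in WT (1.31 ± 0.13, adjusted p = 3.2e-07) and fell in KO (-1.13 ± 0.21, adjusted p = 2.8e-04), and after recovery it stood at 1.44 ± 0.0454 CPM in KO and 24.9 ± 1.49 CPM in WT. SESN1, in contrast, was higher in KO at heat shock (1.41 ± 0.13, adjusted p = 6.8e-07; 22.2 ± 3.06 CPM in KO and 8.35 ± 0.955 CPM in WT), as was TRIB2, the paralog of TRIB3 (1.97 ± 0.13, adjusted p = 3.4e-08; 28.97 ± 1.02 CPM in KO and 7.41 ± 1.06 CPM in WT). DDIT4L, SESN1 and SESN3 are also counted among the mTORC1 regulators. CEBPA, CEBPD, CEBPG and ATF3 are also among the bZIP factors, and PPP1R15B is among the eIF2 genes. EIF4EBP1 is both in the list of targets and in that of mTORC1. The lists are therefore not independent of each other.

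**Figure D5:**
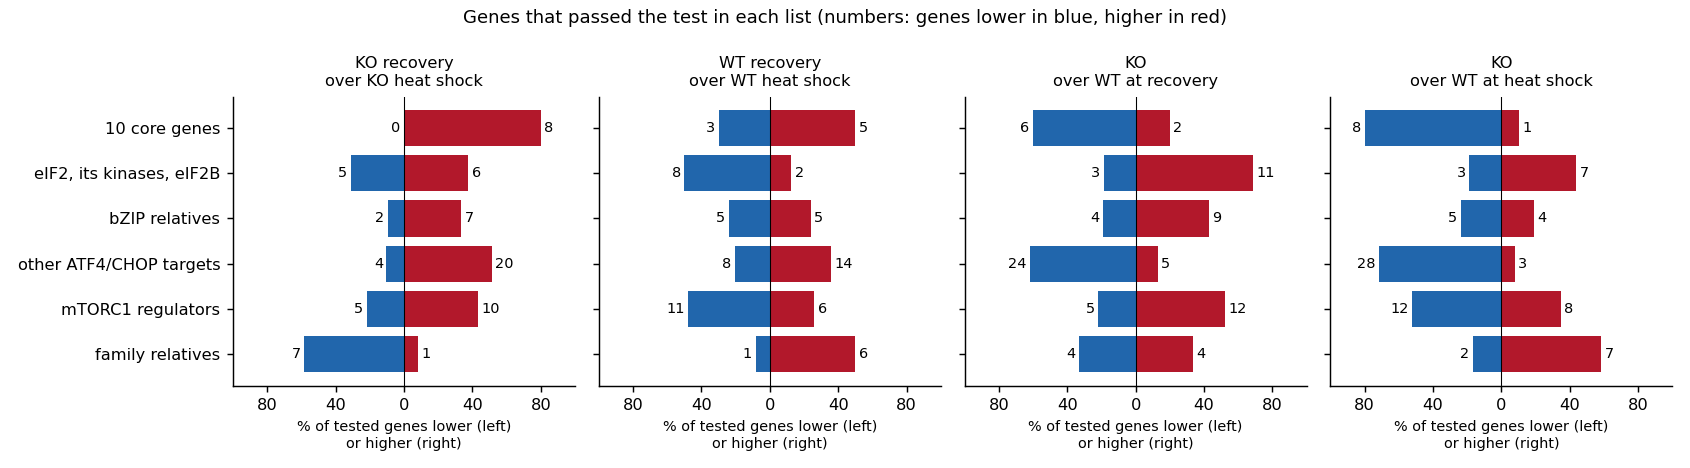
Percent of the tested genes of each list that were called higher (red, right) or lower (blue, left) in 4 comparisons, with the number of genes at each bar. The core genes and the other ATF4 or CHOP targets lean to the right in KO recovery over heat shock and to the left in KO over WT at both times, with 24 of 39 targets lower at recovery and 28 of 39 at heat shock.

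Likeness between the core genes is given as a description over the 8 libraries, which share lines and conditions. Pearson's r of log2 CPM was 0.98 between ATF4 and CHAC1, against 0.35 between ATF4 and DDIT3. It was 0.96 between DDIT3 and DDIT4, 0.93 between DDIT3 and TRIB3, and 0.95 between DDIT4 and ASNS. SESN2 was about as like ATF4 (0.73) as DDIT3 (0.74), and ATF5 was weakly related to both (0.44 and -0.34). PPP1R15A had negative values with both (-0.87 with ATF4 and -0.33 with DDIT3), as ATF5 had with CEBPB (-0.80). Of 11533 other coding genes with a mean count of at least 50, those most like ATF4 were ARMC7 (r = 0.967), ENY2 (0.963) and SUPT6H (0.96). Those most like DDIT3 were PRICKLE3 (0.989), C17orf59 (0.988) and, at 0.99, a readthrough gene over RPL17 and C18orf32 whose reads cannot be told apart from those of its parts.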

How the data were processed

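Per the file headers, the authors deposited 4 tables, 1 per line and replicate, with read counts per gene of a recovery and a heat shock library and a log2 fold change scaled by column totals. No column name says which library is recovery: that was taken from how each comparison is named, and if it were wrong every recovery change would turn in sign. CASAVA, TopHat and hg19 are named in the submitters' processing notes. The sources used here give no versions, counting program or strand setting. Genes given as NA had no read and were set to 0. Counts were filtered with filterByExpr, scaled by TMM and tested in edgeR 4.0.16 (quasi-likelihood F test; R 4.3.3) over all 17471 genes and 8 libraries, with Benjamini-Hochberg adjustment. Recovery was tested within pairs of line and replicate number (2 residual degrees of freedom), and KO against WT without a block (4 residual degrees of freedom). Deviations of same-numbered libraries correlated at -0.0259 in KO and -0.0144 in WT. Alternatives were RLE, upper-quartile and column-total scaling, no filter, DESeq2 1.42.0, GC and length offsets (mgcv 1.9.3, for the 95.4% of genes with both values), the other block setting, and each library left out. Lengths are of the longest protein-coding GENCODE transcript of a gene, or of its longest transcript where it has none. The members and the lists were chosen with earlier results of these data known. All 10 genes are named whatever their values, and list genes were drawn from up to 4 called genes per list and comparison with the lowest p, or all where 5 or fewer were called in a direction. Only some of those are described, picked with their values known. Where leaving out a library breaks a pair, its partner no longer informs the change, so leaving out either gives nearly the same value. Leaving out a library of a group that is not compared barely moves the estimate. The 15 alternatives, and the 750 values given below, are therefore not independent checks. Counts carry no molecular identifiers, so counting precision covers counting error only.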

Additional observations from a re-analysis of the deposited data

Results flagged for a closer look

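For 8 of the 10 genes the recovery response, on the log2 scale, differed between KO and WT cells by the interaction test of edgeR with Benjamini-Hochberg adjustment over all genes. The KO response was the higher one for CHAC1 (1.72), TRIB3 (1.25), ATF5 (1.22), ATF4 (1.08), DDIT3 (0.95) and SESN2 (0.51), and the lower one for CEBPB (-0.60) and PPP1R15A (-0.41). The adjusted p ran up to 0.0212 (PPP1R15A). In the same test 28.5% of all genes had a higher and 27.8% a lower response in KO. For ATF4, ATF5 and CHAC1 both KO pairs rose and both WT pairs fell. NUP62 and IL4I1 overlap ATF5, and MARS and MBD6 overlap DDIT3, on the opposite strand. The part of these overlapping genes in the differences was not tested. Groups held 2 libraries each, so no library was tested as standing apart within its group.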

How the results depend on the processing

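Of 750 values of the 10 genes under alternatives, 678 kept their direction and their side of the threshold, 46 kept the direction but no longer passed, 8 newly passed and 18 turned in sign. For 30 of the 50 results no alternative changed direction or call. The calls held in the fewest of 15 alternatives were those of PPP1R15A in WT recovery (7), SESN2 in KO recovery (8), and ATF4 in KO recovery, CEBPB between the lines at heat shock and PPP1R15A for the difference of responses (9 each). With GC and length offsets 4 of the genes rose in KO recovery and 1 fell, beside 3438 and 2368 of all genes. At recovery 1 was then higher in KO, beside 5690 of all genes. Under those offsets signs turned for SESN2 (0.18 in WT recovery, -0.05 for the difference of responses), CEBPB (-0.06 in KO recovery), DDIT4 (-0.37 for the difference of responses), ATF5 (0.07 between lines at heat shock) and ATF4 (-0.08 between lines at recovery). With column totals 1 gene fell in KO recovery, 1 was higher in KO at recovery, and the values were -0.11 for DDIT4 and -0.20 for ASNS (difference of responses) and -0.03 for ATF4 (lines at recovery). With upper-quartile scaling 1 was higher in KO at recovery, and ASNS had -0.05 and ATF4 -0.01 in the same comparisons. The median of all genes was -0.292 with column totals, -0.136 with upper-quartile scaling and -0.137 with no filter, against -0.032, in the difference of responses. Between the lines at recovery it was -0.197 with column totals and -0.177 with upper-quartile scaling, against -0.01. With column totals it was -0.145 in KO recovery, against -0.023, and 0.149 in WT recovery, against 0.009. With no filter PPP1R15A had 0.05 between the lines at recovery, and with no filter or in DESeq2 1 gene had a lower response in KO. DESeq2 called 2324 genes higher and 2320 lower in KO recovery, against 3601 and 3694. With 1 library left out, the range was 5 to 8 genes higher in KO recovery, 1 to 2 with a lower response in KO and 0 to 1 higher in KO at heat shock. Over all genes it was 1520 to 4233 higher and 1318 to 4012 lower in KO recovery. It was -0.09 to 0.19 for TRIB3 in WT recovery, -0.10 to 0.27 for ASNS (difference of responses) and -0.17 to 0.08 for PPP1R15A (lines at recovery). The cause of these shifts was not tested. Without the replicate block, 3611 genes rose and 3788 fell in KO recovery, and no call of the 10 genes changed with or without the block in any comparison. The lowest count of a core gene in a library was 271 (CHAC1, WT recovery).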
